A study of Mus musculus with 34 samples.

Results

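The genes of the cytosolic ribosomal proteins were followed in the mouse cornea across 12 ages. They were taken as every gene whose probe sets carry a single symbol that begins with Rpl or Rps and a digit, or is Rplp0, Rplp1, Rplp2 or Rpsa, without Rps6k kinases and named pseudogenes. The rule found 63 genes among the 19938 symbols of the arrays, each read through its brightest probe set over the 32 whole-cornea arrays. Of these, 54 are ribosomal proteins by name, 33 of the large and 21 of the small subunit. The other 9 are copies that carry a ribosomal protein's name with a suffix (Rpl39l, Rps4l, Rps27l, Rpl32l, Rpl10l, Rpl7l1, Rpl3l), the retroposed gene Rps23rg1, and Rps19bp1, which encodes a protein that binds RPS19. A further 20 symbols that the rule would take, among them Rpl3, Rpl11, Rpl32, Rpl39, Rps23 and Rps27, occurred on probe sets with several symbols alone and were not analysed here. Rpl12 was found on both kinds, and its probe set with a single symbol was read.

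All mice were wildtype CB6. Whole corneas came from embryos at E14.5, E15.5 and E17.5 and from mice at postnatal days P3, P7, P14 and P28, at 2 months, 6 months, 1 year, 18 months and 2 years. There were 3 arrays for each age up to 2 months and 2 arrays for each later age. A single array held the epithelium of P28, lifted off with dispase, and another the stroma of P7, cut by laser capture. Whether the arrays of an age were made from separate animals is not stated in the labels. The p-values therefore cover the spread among these arrays, which may be technical.

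The arrays fall into 2 sets. The 18 earlier arrays, from E14.5 to P14, read at least 1501 for 8 probe sets without a symbol, and the 14 later arrays, from P28 on, at most 12.8. Age and array set cannot be told apart between P14 and P28, so every other comparison stays within a set. Marker genes of neighbouring tissues stood at least 2 log2 units above their usual level on some arrays. These were lens genes on E14.5 replicates 2 and 3, P14 replicate 2, 2 months replicate 1 and 6 months replicate 2, muscle genes on E17.5 replicates 1 and 3, retina genes on 6 months replicate 1, and blood genes on all 3 arrays of E14.5.

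A ribosome is built from ribosomal RNA and a fixed set of proteins, most of them present in a single copy per particle, so that cells make these proteins together and in matched amounts. In mammals their mRNAs begin at the cap with a run of pyrimidines, the terminal oligopyrimidine tract, through which mTOR signalling controls how strongly they are translated. Several of the genes have copies that arose by duplication or retroposition and are used in particular tissues, such as Rpl39l and Rpl10l in male germ cells and Rpl3l in striated muscle.

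Gene starts are shown because that tract is the sequence feature the family is known for. RefSeq promoter entries (GRCm38.p6) matched 51 of the 63 genes, 43 of them ribosomal proteins by name. Each line runs 5′ to 3′ from 20 bases before the annotated start to 20 bases from it on, with the longest run of C and T in capitals. The following 5 genes have long runs there.
Rpl28: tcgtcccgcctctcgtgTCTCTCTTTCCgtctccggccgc
Rpl7a: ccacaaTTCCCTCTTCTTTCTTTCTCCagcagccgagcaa
Rpl27a: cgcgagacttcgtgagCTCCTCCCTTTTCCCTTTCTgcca
Rpl4: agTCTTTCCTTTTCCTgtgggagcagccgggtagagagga
Rpl14: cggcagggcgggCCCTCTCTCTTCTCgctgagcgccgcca
The windows are Rpl28 at chr7:4792945-4792984 on the plus strand, Rpl7a at chr2:26910787-26910826 on the plus strand, Rpl27a at chr7:109519175-109519214 on the plus strand, Rpl4 at chr9:64173367-64173406 on the plus strand, and Rpl14 at chr9:120571497-120571536 on the plus strand. The runs measure 11 bases in Rpl28, 21 in Rpl7a, 20 in Rpl27a, 14 in Rpl4 and 14 in Rpl14, the gene with the largest ageing difference below. Rpl28 and Rpl14 were themselves called in comparisons below, and whether run length goes with change was not tested. The next 4 are other genes called in comparisons below, with shorter runs.
Rpl12: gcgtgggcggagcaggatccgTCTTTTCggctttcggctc
Rpl26: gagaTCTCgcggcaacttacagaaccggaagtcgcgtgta
Rps19: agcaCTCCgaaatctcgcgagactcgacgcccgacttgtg
Rpl39l: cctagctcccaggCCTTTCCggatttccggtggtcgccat
These windows are Rpl12 at chr2:32961692-32961731 on the plus strand, Rpl26 at chr11:68901546-68901585 on the plus strand, Rps19 at chr7:24884572-24884611 on the plus strand, and Rpl39l at chr16:10170208-10170247 on the plus strand, with runs of 7 bases in Rpl12, 4 in Rpl26, 4 in Rps19 and 7 in Rpl39l.

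A run of at least 8 pyrimidines on the sense strand lay in this window in 17 of the 43 ribosomal protein genes, or 39.5%, against 15.9% of all 27025 promoters. The median longest run was 7 bases in the ribosomal protein genes and 5 bases in all promoters. Within the full 300 bases, on either strand, CCGGAAG (a core bound by ETS factors) occurred in 37.2% of the ribosomal protein genes and 9.12% of all promoters. CACGTG, the E-box, occurred in 9.3% and 7.24%, and TATAAA in 9.3% and 14.2%. These counts describe letters around annotated starts, which need not be the starts used in the cornea.

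Ribosomal protein mRNAs gave some of the brightest signals on the arrays. Of the 54 ribosomal proteins by name, 43 stood among the 100 genes with the highest mean log2(intensity + 16), and 52 among the top 5%. Their median level was 12.89, against 8.68 for all 12998 genes tested. Probe sets differ in how strongly they bind, so an order of intensities is not an order of mRNA amounts. The brightest were Rpl23 (13.45), Rps29 (13.37), Rpl37a (13.33) and Rps4x (13.32). Rpl23 read between 9620 and 13000 over all 32 whole-cornea arrays.

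The dimmest were Rpl3l (7.10), Rps23rg1 (7.67), Rpl39l (8.07) and Rpl12 (8.26). Rpl12, a protein at the base of the ribosomal stalk, was the only ribosomal protein by name below 10 on this scale. Its probe sets with several symbols were not read. Whether the low level is that of its mRNA or of this probe set was not tested. Rpl3l, the muscle copy of Rpl3, was the only gene of the 63 that did not pass the filter on low values and was not tested. It read between 94.73 and 155.2 on the whole-cornea arrays. On the muscle-rich arrays, E17.5 replicates 1 and 3, it read 107.8 and 119.4, within the range of the others.

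The remaining copies and Rps19bp1 had higher means over the 32 arrays than these 4. Rpl32l averaged 11.25 and Rps4l 11.33 on the log2 scale, and Rps27l read between 1110 and 3265. A second probe set of Rps4l averaged 9.32. Whether the probe sets of copies also read the mRNA of the genes they resemble was not tested. Rpl10l, a copy of Rpl10, averaged 10.13 and ranged from 823.8 to 1438 in intensity. Rps19bp1 averaged 9.08, with intensities from 386.7 to 777. Neither Rpl10l, Rpl32l nor Rps19bp1 passed the test in any of the 15 comparisons made within an array set.

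**Figure D1:**
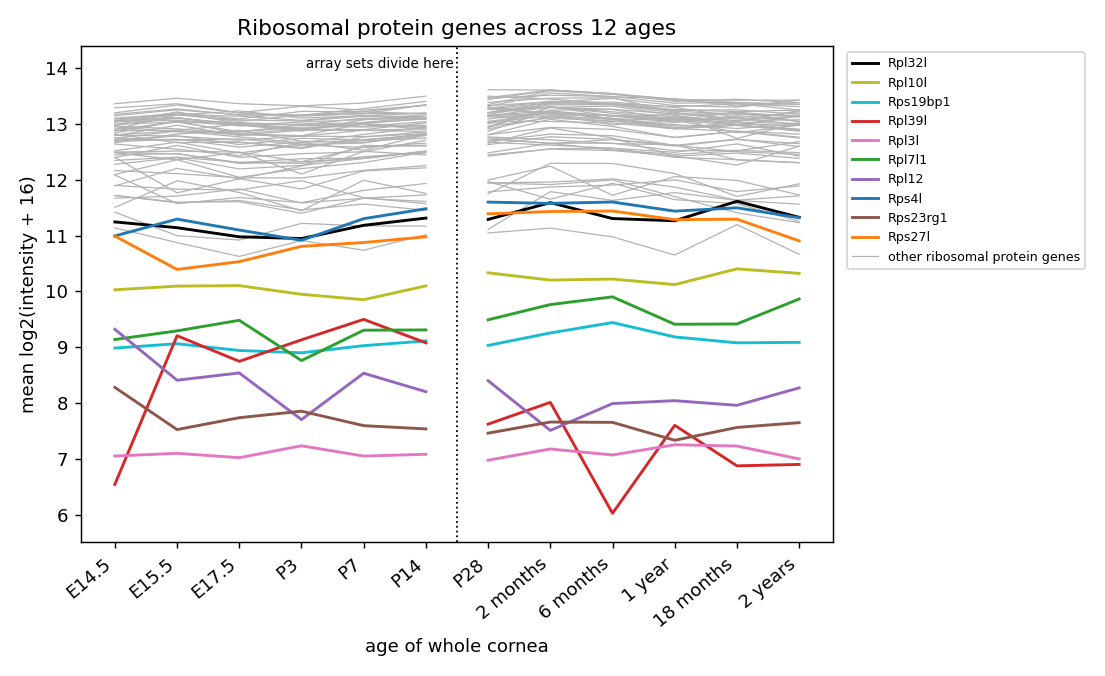
Mean log2(intensity + 16) of each gene (vertical axis) at 12 ages (horizontal axis), with lines broken where the array sets divide. Grey lines are the ribosomal protein genes other than Rpl12, most of them between 12 and 13.7, and coloured lines are Rpl12, the copies and Rps19bp1, of which Rpl39l has the widest range.

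From E14.5 to P14 a smaller share of the ribosomal protein genes than of all genes was called, and from P28 on the shares were close. Each gene was tested for any difference among the 6 ages of an array set (limma's moderated F-test, Benjamini-Hochberg adjustment over all genes, called at an adjusted p under 0.05). From E14.5 to P14, 12 of the 62 tested genes were called, or 19.4%, where 54.3% of all genes were called. From P28 to 2 years, 11 were called, or 17.7%, close to the 19.8% of all genes. In neither test were 42 of the 62 called, and 36 were called in none of the 15 comparisons made within an array set. These counts were not made for all genes, so no share stands beside them. Of 689 other genes with a mean log2 level of at least 11, a set chosen after the data were seen, 63% were called in the earlier test and 19.2% in the later.

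The spread between arrays of an age was also narrow. The residual SD had a median of 0.0995 log2 units in the 54 ribosomal proteins, against 0.1995 in all genes. The range between the lowest and highest age mean from E14.5 to P14 had a median of 0.22 in the ribosomal proteins and 0.56 in all genes. From P28 to 2 years these medians were 0.25 and 0.48. Rpsa (0.0998), Rps21 (0.106), Rplp1 (0.113) and Rps28 (0.114) moved least before P28.

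With array weights in the fit, which down-weight arrays that stand apart, 35 of the 62 genes were called from E14.5 to P14 and 28 from P28 to 2 years. All-gene calls rose to 10227 and 6202 under the same weights, whose estimation stopped before it converged. Without the lens-, muscle- and retina-rich arrays, the earlier test called 19. Without 18 months replicate 2, the later test called 7. All-gene counts are not set beside the 19 and the 7, so neither is a result about the ribosomal protein genes. Leaving out the rich arrays also leaves E14.5 replicate 1 and E17.5 replicate 2 alone at their ages.

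**Figure D2:**
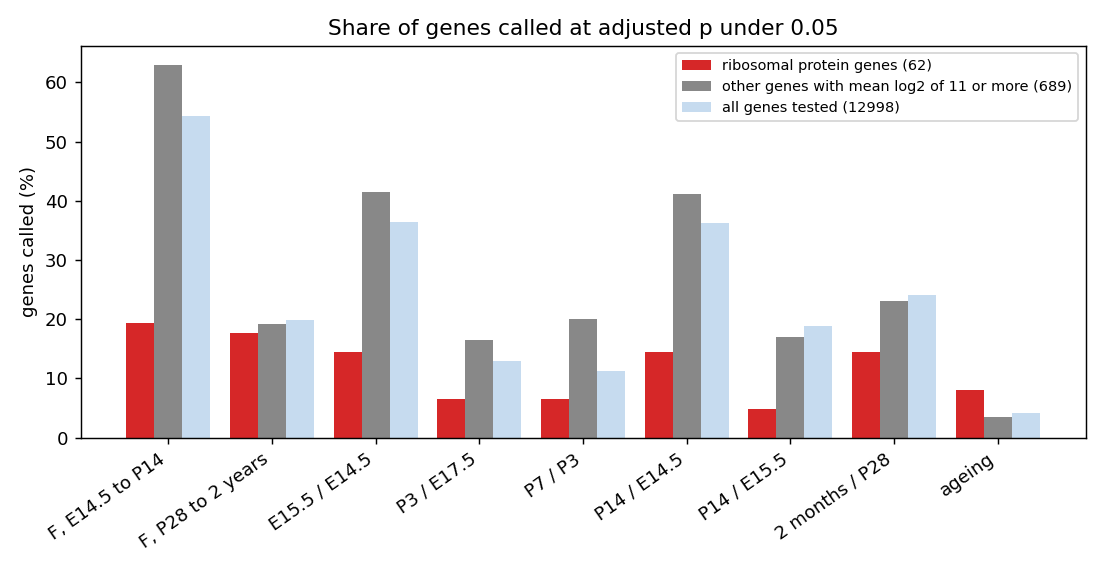
Percentage of genes called at an adjusted p under 0.05 (vertical axis) in 9 comparisons (horizontal axis), for the 62 ribosomal protein genes, 689 other genes with a mean log2 level of at least 11, and all 12998 genes. The red bars are the lowest of each trio except in ageing, where they reach 8.06% against 4.12% of all genes.

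The 12 genes called before P28 were 5 copies or relatives, 5 large-subunit and 2 small-subunit proteins. There were 8 tested copies and relatives and 54 ribosomal proteins. The highest F values were those of Rpl39l, Rps23rg1, Rpl12, Rpl29, Rps4l and Rpl30. The remaining 6 were Rps3, Rpl7l1, Rps27l, Rps25, Rpl26 and Rpl28. Without E14.5 in the test, 8 genes were called in place of 12, and Rpl39l, Rps23rg1, Rpl12 and Rpl30 were not among them. No count of all genes is set beside the 8.

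Between E14.5 and E15.5, 9 of the 62 genes were called, while 36.4% of all genes were. At E15.5, 3 were higher (21.8% of all genes) and 6 lower (14.6% of all genes). None of the 21 small-subunit proteins was called, and none had an unadjusted p under 0.05, where 5969 of all 12998 genes did. The median difference of the 62 genes was 0.07, and that of all genes 0.01. Centring each array on its median moved these medians to 0.18 and 0.13.

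Rpl39l, the copy of the exit-tunnel protein gene Rpl39, had the largest change. Its intensity was 712.9, 439.1 and 604.6 at E15.5, against 118.7, 98.13 and 36.48 at E14.5. All 3 arrays of E15.5 lay well above all 3 of E14.5. The log2 difference was 2.67 (SE 0.33, limma adjusted p = 1.15e-06), and leaving out any single array kept it between 2.25 and 2.93. All 3 values of E14.5 lay below the median intensity of every earlier array (188.2 to 240.6). The files give no detection calls, so the size of the change at such low readings is uncertain. It then stayed between 358.9 and 853.9 on all arrays of E17.5 to P14. Without the lens- and muscle-rich arrays the difference was 2.13, with E14.5 replicate 1 as the only array of its age.

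Rps23rg1, a retroposed copy of Rps23, fell. It read 164.1, 178.1 and 162 at E15.5, against 303.4, 267.4 and 315.4 at E14.5, with no overlap (log2 difference -0.76, SE 0.14, limma adjusted p = 0.00015). Its values at E15.5 lay below every earlier array's median and those at E14.5 above, so the size of this change is uncertain too. Rps27l, a copy of Rps27 known as a p53 target, read 1326, 1370 and 1292 at E15.5, against 1721, 1828 and 2620 at E14.5. Its log2 difference was -0.60 (limma adjusted p = 0.00872), and the call was lost without E14.5 replicate 3 (adjusted p = 0.0793). Centred arrays ended it too (limma adjusted p = 0.0598). Rps4l, a copy of Rps4x that RefSeq lists as a transcribed pseudogene, read 2462, 2546 and 2487 at E15.5, against 1869, 1973 and 2246 at E14.5. Its log2 difference of 0.30 had a limma adjusted p of 0.045, and leaving out any 1 of 14 arrays lost the call.

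Among the large-subunit proteins, 4 were lower at E15.5. Rpl12 read 315.7, 310.4 and 346.2 at E15.5, against 599.5, 599.8 and 674.2 at E14.5 (log2 difference -0.91, SE 0.27, limma adjusted p = 0.0118). Rpl30 read 3164, 2907 and 3024 at E15.5, against 3679, 4322 and 5124 at E14.5, a log2 difference of -0.51. Rpl29 read 2079, 2088 and 1931 at E15.5, against 2574, 2568 and 3060 at E14.5, a log2 difference of -0.42. In each of these genes the arrays of the 2 ages did not overlap, and no single array decided the call. Arrays of uncalled genes such as Rpl41 (limma adjusted p = 0.494) did not overlap either, and non-overlap was not counted over all genes.

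Rpl26, which also binds the p53 mRNA, was the least steady of them. It read 4641, 3142 and 2859 at E15.5, against 6148, 4734 and 5420 at E14.5 (log2 difference -0.64, limma adjusted p = 0.0416). Its call was lost without E14.5 replicate 1 or 3 or E15.5 replicate 2 or 3, with an adjusted p of at most 0.181. Centred arrays ended it too (limma adjusted p = 0.105). Rpl28 was the only ribosomal protein by name called higher. It read 9249, 9269 and 10060 at E15.5, against 7874, 7674 and 8676 at E14.5, a log2 difference of 0.24 (limma adjusted p = 0.031). That call was lost without E14.5 replicate 1 or 2 or E15.5 replicate 3, with an adjusted p of at most 0.128.

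Markers of the cornea itself, of blood and of lens moved with this comparison. At E15.5 10 of 11 corneal epithelium genes were higher, with a median of 1.93 and Krt12 at 6.69, and 10 of 12 corneal stroma genes, with a median of 2.28. All 5 tested blood genes were lower at E15.5, with list medians of 7.28 to 8.02 on the arrays of E15.5 and 11.70 to 12.98 on those of E14.5. Of 20 lens genes 14 were lower, and the list medians were 7.25 to 7.67 at E15.5 and 8.86 to 12.42 at E14.5. Their part in these results was not tested. Without the lens- and muscle-rich arrays, 4 genes were called, and Rpl39l and Rps23rg1 (adjusted p = 0.00407) were among them, while the 7 others lost their call. That fit left E14.5 replicate 1 alone at its age, and no count of all genes is set beside its 4. Fewer cells of a type and less RNA per cell cannot be told apart in whole tissue.

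Other gene groups of the ribosome machinery were counted at the same step. Of 76 mitochondrial ribosomal protein genes, 24 were lower at E15.5 and 0 higher, with a median log2 difference of -0.28. Of 49 ribosome assembly and rRNA processing factors, 13 were lower and 0 higher, with Emg1 at -0.81 and Nop56 at -0.77. Among 15 genes of RNA polymerase I, which transcribes ribosomal RNA, Ubtf (0.31) and Cd3eap (0.29) were higher and 3 were lower, led by Taf1d at -0.93. Of 11 translation factors and other genes with terminal oligopyrimidine tracts, 3 rose, among them the elongation factor gene Eef2 at 0.80, and 1 fell, Nap1l1 at -0.76. Of 18 genes that control ribosome production, 7 rose and 0 fell, with the Myc partner gene Max at 0.78 and the kinase gene Rps6ka3 at 0.63. All 26 cell cycle genes were lower, with a median of -1.68.

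After E15.5 few ribosomal protein genes moved. At E17.5 against E15.5, limma called 0 of the 62 genes and 0.923% of all genes. An unadjusted p under 0.05 was found for 2 of the 62 and for 1949 of all 12998 genes. At P3 against E17.5, 4 genes were called, against 13% of all genes. Of these, 1 was higher (5.1% of all genes) and 3 lower (7.91%). Rps3, a small-subunit protein that is also a DNA repair enzyme, read 4517, 3925 and 4766 at P3, against 5698, 5745 and 5821 at E17.5, a log2 difference of -0.39 (limma adjusted p = 0.0112). It returned by P7, when it read 5431, 6437 and 5629, a log2 difference of 0.41 against P3. These Rps3 calls were lost without P3 replicate 2, and the second also without P7 replicate 2.

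Rpl7l1, a nucleolar relative of Rpl7, followed the same course. It read 396.2, 344.5 and 532.5 at P3, against 668.7, 709.7 and 719.8 at E17.5, a log2 difference of -0.72 (limma adjusted p = 0.00709). Its values at P7 were 695.3, 741.4 and 453.1, which overlapped those of P3, with a log2 difference of 0.54. The fall was not called without P3 replicate 2, and the rise not without P3 replicate 1 or 2 or P7 replicate 1 or 2. Muscle markers moved with the step from E17.5 to P3. At P3 8 of 11 skeletal muscle genes were lower, with a list median per array of 7.59 to 8.02 at P3 and 8.11 to 11.84 at E17.5, and 3 of 5 blood genes were lower. Their part in the result was not tested. Without the lens-, muscle- and retina-rich arrays, which leaves E17.5 replicate 2 alone at its age, Rps3, Rpl7l1, Rpl29 and Rpl12 lost their calls at P3.

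Rpl29 (0.30) and Rpl12 (-0.84) were the other calls at P3. Rpl29's was lost without any 1 of 5 arrays of these ages, and Rpl12's without 17 arrays taken singly. Centred arrays also ended Rpl29's call (limma adjusted p = 0.317).

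At P7 against P3, 4 genes were called, all higher, against 11.2% of all genes in either direction and 8.52% higher. Beside Rps3 and Rpl7l1 these were Rps4l (0.39) and Rps2 (0.26). Leaving out any 1 of 4 arrays ended the call of Rps4l, and leaving out any 1 of 26 arrays that of Rps2. Quantile normalization also ended the calls of Rps4l (limma adjusted p = 0.107) and Rps2 (0.127). At P14 against P7, limma called 0 of the 62 genes and 0.0154% of all genes. An unadjusted p under 0.05 was found for 1 of the 62 and for 819 of all 12998 genes.

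Over the whole span from E14.5 to P14, 9 genes were called at P14 against E14.5, and 36.3% of all genes. The 4 higher ones (18.5% of all genes) were Rpl39l at 2.54, Rps4l at 0.49, Rps3a1 at 0.40 and Rps12 at 0.25. Rpl39l read 853.9, 468.1 and 358.9 at P14, against 118.7, 98.13 and 36.48 at E14.5. Rps4l read 3314, 2505 and 2768 at P14, against 1869, 1973 and 2246 at E14.5. The Rps3a1 arrays overlapped, at 6588, 4772 and 6107 at P14, against 3925, 4244 and 4965 at E14.5.

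The 5 lower ones (17.7% of all genes) were Rpl12 at -1.12, Rps23rg1 at -0.74, Rps19 at -0.33, the stalk protein gene Rplp2 at -0.27 and Rpl29 at -0.25. No single array ended the calls of Rpl39l, Rps4l, Rpl12 and Rps23rg1, while 2 to 4 arrays of these ages, taken singly, ended each of the other 5. Centred arrays ended the calls of Rplp2, Rps19 and Rpl29 (limma adjusted p = 0.205 to 0.22). The count at P14 against E14.5 was 15 without E14.5 replicate 3, and 5 without E14.5 replicate 1, P14 replicate 1 or P14 replicate 3. At P14 against E15.5, 18.9% of all genes were called and 3 of the 62, all higher (7.45% of all genes). Rpl26 read 6010, 6362 and 6282 at P14, against 4641, 3142 and 2859 at E15.5, a log2 difference of 0.84 (limma adjusted p = 0.0161), not called without E15.5 replicate 2 or 3. Rps27l stood 0.58 higher and Rpl30 0.36 higher. Centred arrays ended both of these calls (limma adjusted p = 0.0502 and 0.127). Leaving out any 1 of 2 arrays ended the Rps27l call, and any 1 of 5 the Rpl30 call. The count at P14 against E15.5 was 1 without E15.5 replicate 2 or P14 replicate 1, and 0 without E15.5 replicate 3. Counts of all genes are not set beside these counts without single arrays.

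**Figure D3:**
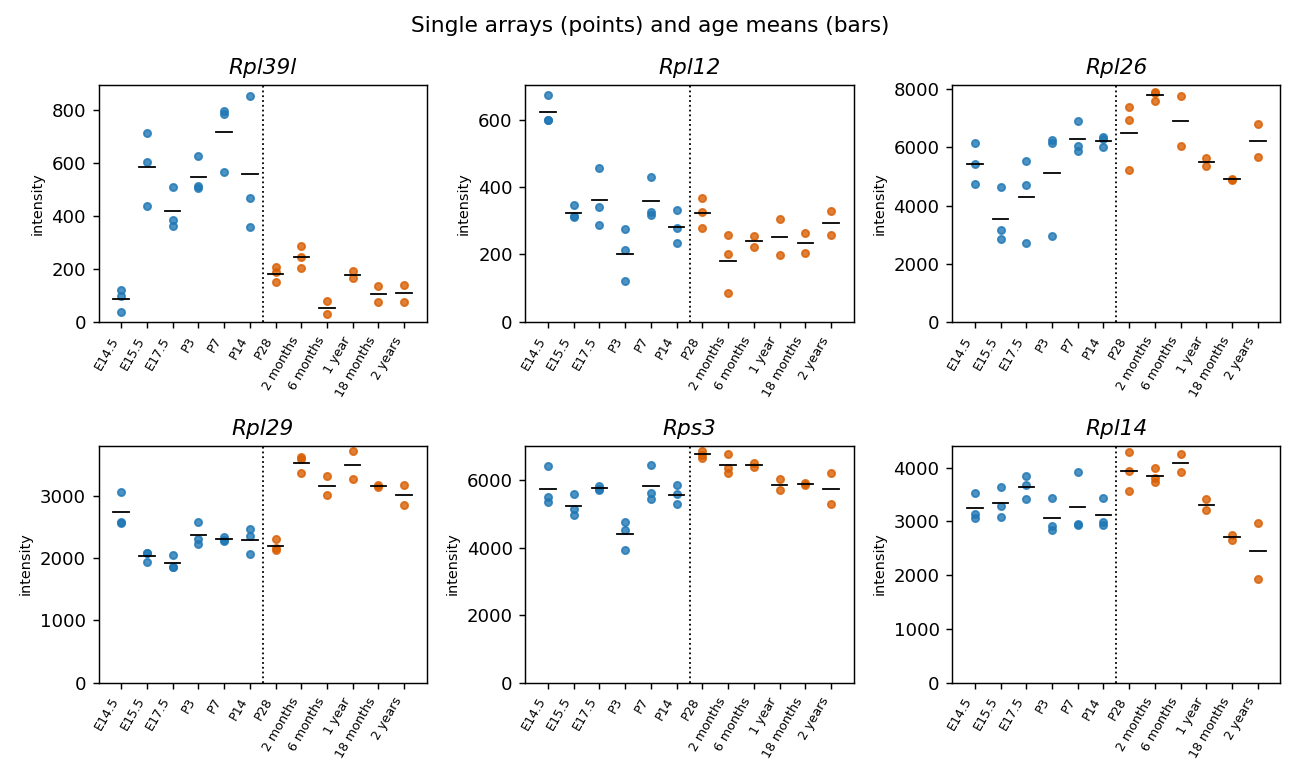
Intensity (vertical axes, linear, from 0) on each whole-cornea array for 6 genes, by age (horizontal axes), with points for arrays, bars for age means and a dotted line where the array sets divide. Rpl39l reads at most 118.7 at E14.5 and at least 439.1 at E15.5, and Rpl14 reads at least 3731 at 2 and 6 months and at most 3410 from 1 year on.

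At P28 against P14, where age and array set cannot be told apart, 6 genes were called and 31.9% of all genes. The 5 higher (24% of all genes) were Rpl13 (0.36), Rplp2 (0.33), Rps18 (0.29), Rps3 (0.28) and Rpl6 (0.25). All 5 lost their call under quantile normalization, with adjusted p-values of 0.0886 to 0.834, and Rps18, Rps3 and Rpl6 also with centred arrays. Rpl39l was the 1 lower (7.87% of all genes), at 207.8, 187.9 and 151.2 at P28, against 853.9, 468.1 and 358.9 at P14 (log2 difference -1.46). The median of the 62 was 0.17, and 0.01 after quantile normalization, when all genes stood at -0.01.

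Between P28 and 2 months 9 ribosomal protein genes were called, and 24.1% of all genes. At 2 months 8 were higher (7.92% of all genes) and 1 was lower (16.2% of all genes). The median difference of the 62 genes was 0.12, while that of all genes was -0.08. With each array centred on its median these became 0.03 and -0.18, and with quantile normalization 0.07 and -0.03.

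Rpl29, the large-subunit protein, rose most. It read 3360, 3625 and 3586 at 2 months, against 2161, 2132 and 2298 at P28, a log2 difference of 0.68 (SE 0.09, limma adjusted p = 0.000122). It stayed at 2859 or above on every later array. Rps19, the gene most often mutated in Diamond-Blackfan anaemia, read 4999, 5034 and 5003 at 2 months, against 3739, 3315 and 3257 at P28, a log2 difference of 0.54 (limma adjusted p = 0.00346). Rpl36 rose by 0.38 and Rpl21 by 0.37. No single array decided these 4 calls, but Rpl36 lost its call with each array centred on its median (adjusted p = 0.0792).

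The smaller rises were those of Rpl41 (0.34), Rps25 (0.27), Rps28 (0.25) and Rps20 (0.24). Leaving out 2 months replicate 2 lost the Rpl41 call, and 5 or 6 of the arrays of these ages, taken singly, lost those of the other 3. Centred arrays ended all 4 of these calls, and quantile normalization those of Rps25, Rps28 and Rps20. Rpl12 was the gene that fell, at 258.9, 85.63 and 200 at 2 months, against 325.5, 366.7 and 279 at P28 (log2 difference -0.89, limma adjusted p = 0.0223). Its call was lost without P28 replicate 1 or 2 or 2 months replicate 2, and without the last of these the difference was -0.47. Of its values at 2 months, 85.63 and 200 lay below every later array's median intensity.

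The labels mark 2 months replicates 3 and 2 as 1A and 1B and do not say what this means. If these are a single sample, n is 2 at that age. With them averaged, Rpl41, Rps25, Rps28, Rps20 and Rpl12 lost their calls at 2 months against P28, while the other 4 kept theirs. Rpl6 lost its call in ageing, and Rpl41, Rps14 and Rpl21 theirs in the F-test over P28 to 2 years. Endothelial markers moved with this step: all 5 tested genes of the corneal endothelium list were higher at 2 months, with a median of 1.48, Col8a1 at 1.84 and Cdh2 at 1.75. The list median per array was 8.98 to 9.64 at 2 months and 7.62 to 8.67 at P28. Their part in the result was not tested.

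From 2 months on, 1 call was made between neighbouring ages. At 6 months against 2 months 2.89% of all genes were called and 1 of the 62, which was lower (1.81% of all genes). This was Rpl39l, at 28.23 and 79.49 at 6 months, against 244.7, 286.7 and 201.6 at 2 months (log2 difference -1.99, SE 0.37, limma adjusted p = 0.00564). Without 6 months replicate 1 the difference was -1.43 and not called (adjusted p = 0.139). The 2 arrays of 1 year read 165.2 and 191.7. All its values from 6 months on lay below the later arrays' medians (204.6 to 232.2), and those of 2 months near them, so the size of this change is uncertain. In the 3 later steps limma called 0 of the 62 genes each. All-gene shares there were 0.262% at 1 year against 6 months, 1.18% at 18 months against 1 year and 0.6% at 2 years against 18 months. The genes of the 62 with an unadjusted p under 0.05 numbered 3, 4 and 4, against 1202, 1455 and 1069 of all 12998 genes.

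Ageing was measured as the mean of 1 year, 18 months and 2 years minus the mean of 2 and 6 months. Differences of ribosomal protein genes were small and lay mostly below 0. The median of the 62 differences was -0.15, against 0.01 for all genes and -0.01 for the 689 other bright genes. Of the 62, 57 lay below 0, while 6859 of all 12998 genes lay above 0. At an adjusted p under 0.05, 5 of the 62 were called, or 8.06%, all lower, against 4.12% of all genes in either direction and 1.83% lower. At an unadjusted p under 0.05 there were 32 of the 62, and 2476 of all 12998 genes. The ribosomal protein genes rise and fall together across arrays, so their directions are not separate observations. Between pairs of the 54, the median Pearson r was 0.53 over the 14 later arrays.

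Rpl14, a large-subunit protein, changed most. It read 3208 and 3410 at 1 year, 2750 and 2654 at 18 months and 1926 and 2965 at 2 years, against 3808, 4001 and 3731 at 2 months and 4249 and 3912 at 6 months. Every older array lay below every younger one, and the log2 difference was -0.51 (SE 0.10, limma adjusted p = 0.0056). Leaving out any single array kept it between -0.61 and -0.41 and called.

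Rps19 read 4444, 4380, 3432, 3206, 3570 and 4215 on the 6 older arrays, against 4999, 5034, 5003, 5163 and 4848 on the 5 younger. Its log2 difference was -0.38 (SE 0.09, limma adjusted p = 0.0193). Its older values span those of P28, which were 3257 to 3739, and reach above them. Rps14, whose loss is known from an acquired human anaemia, read 9750, 9193, 8601, 8258, 9053 and 10360 on the older arrays, against 11160, 11160, 11530, 11640 and 11040 on the younger, a log2 difference of -0.30. Rpl36 (-0.29) and Rpl6 (-0.25) were the other calls. In all 5 genes older and younger arrays did not overlap. The same held for genes not called, such as Rps6 (limma adjusted p = 0.481) and Rpl7a (0.48). Non-overlap was not counted over all genes.

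Rpl10a (-0.23), Rpsa (-0.25), Rpl30 (-0.30) and Rpl22 (-0.25) lay just outside the threshold with limma adjusted p-values of 0.056, 0.0569, 0.0597 and 0.0619. Rpl26 stood at -0.41 with an SE of 0.18. The genes above 0 were Rpl12 (0.34, SE 0.21), Rpl39l (0.11), Rpl10l (0.07), Rps9 (0.05) and Rplp2 (0.00), none of them called.

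The ageing count depended on single arrays and on scaling. It was 1, Rpl14, without 6 months replicate 1, 18 months replicate 2 or 2 years replicate 1, and 3 without 2 months replicate 3 or 1 year replicate 2. It was 8 without P7 replicate 2 or 2 years replicate 2 and 9 without E17.5 replicate 2. Array weights gave 20. The counts in this paragraph under other settings are not set beside counts of all genes. Quantile normalization gave 3 with a median of -0.05, while all genes then stood at -0.02. Of the 5 genes named above, Rpl14 alone kept its call under quantile normalization (adjusted p = 0.00543), and the other 4 had adjusted p-values of 0.0559 to 0.197. With each array centred on its median, Rpl14 and Rps19 kept theirs, and Rps14, Rpl36 and Rpl6 did not. Retina genes moved with the comparison, with a list median of -1.47 and 2 of 8 called lower, as did the corneal stroma list at -0.44 and the endothelium list at -1.10, while the epithelium list stood at 0.08. Their part in the result was not tested. Against 2 months replicates 2 and 3 alone, the median was -0.18 and 5 genes were called. This leaves out every younger array at least 2 log2 units above the usual level of lens or retina genes. Of the 5 genes named above, Rpl14 alone was among those called, and 1 gene was higher. The kept replicate 2 still had a retina list median of 9.30, against 9.28 on the left-out replicate 1 of 2 months and 7.64 on replicate 3. The 2 arrays kept are the ones labelled 1A and 1B, so the younger group may be a single sample.

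**Figure D4:**
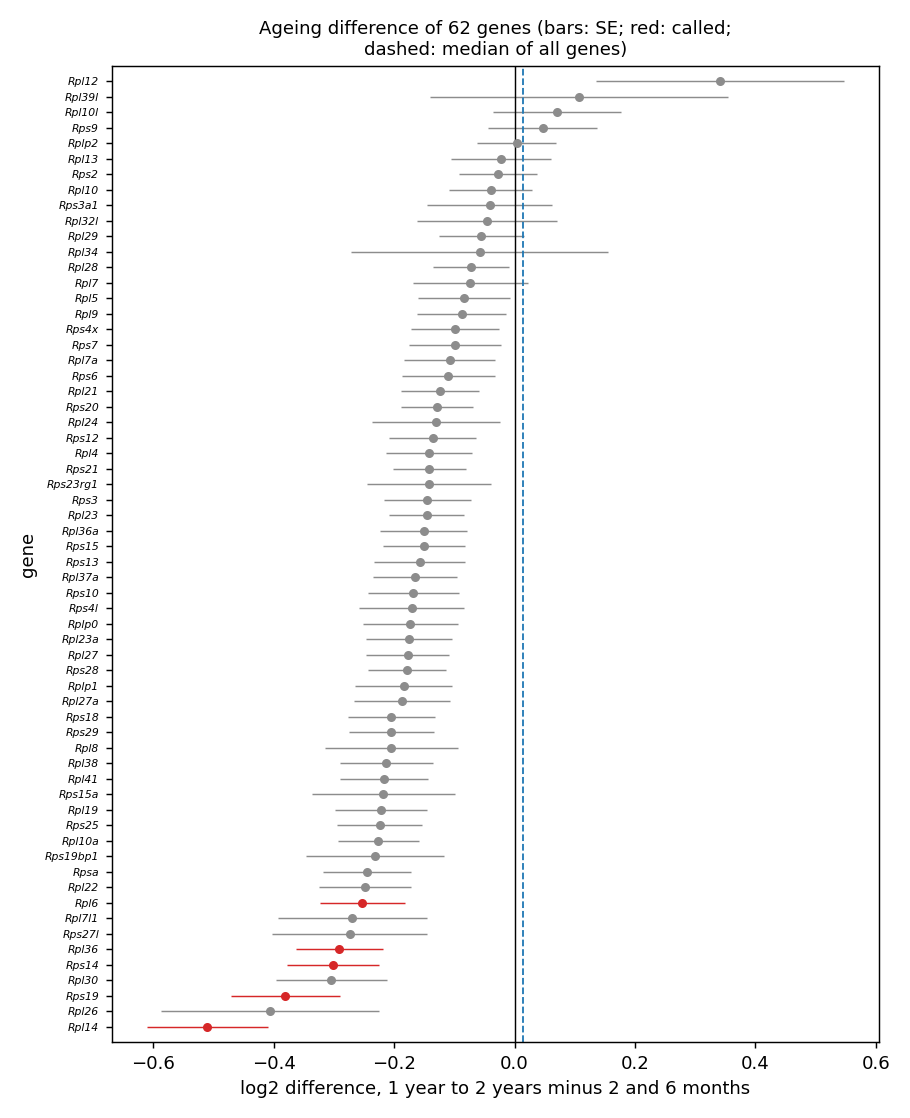
Log2 difference of each of the 62 genes (vertical axis) between 1 year to 2 years and 2 and 6 months (horizontal axis, with bars for the SE), and a dashed line at the median of all genes, 0.01. Red points are the 5 called genes, Rpl14 lowest at -0.51, and 57 points lie below 0.

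Of the related gene groups in ageing, 49 ribosome assembly factors had a median of -0.03, with Utp20 (0.48) and Mdn1 (0.29) called higher. The 76 mitochondrial ribosomal protein genes had a median of -0.12. Of these Mrpl54 (-0.57) and Mrpl12 (-0.39) were lower and Mrpl37 (0.32) was higher. The 11 translation factors and other tract-bearing genes had a median of -0.06, and the 15 RNA polymerase I genes one of -0.06, with 0 called in either. The mTOR complex gene Rictor was higher by 0.40 and the p53 target gene Mdm2 by 0.25.

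Over the later ages as a whole, the highest F values were those of Rpl29, Rpl14, Rps19, Rpl39l, Rpl30 and Rpl6. Rpl30, a large-subunit protein, read 2552 and 2312 at 2 years, against 4301, 4110 and 3587 at P28, and the range of its age means was 0.71. Rpsa, known also as a laminin receptor, read 7193 and 6493 at 18 months and at least 7926 on every other later array. Its F-test call was lost without 18 months replicate 2. Rpl36, Rpl21, Rpl41 and Rps14 were the remaining calls. Leaving out any 1 of 23 arrays ended the Rps14 call, any 1 of 12 that of Rpl41 and any 1 of 6 that of Rpl21. Centred arrays ended all of these remaining calls (limma adjusted p = 0.0583 to 0.123).

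The median level of the 54 ribosomal proteins tracked these courses. Per array it lay between 12.56 and 12.94 from E14.5 to P14 and between 12.88 and 13.22 from P28 on. By age it was 13.01 ± 0.03 at P28, 13.17 ± 0.04 at 2 months (SD, n = 3 each), 13.09 ± 0.0021 at 6 months, 13.01 ± 0.01 at 1 year, 12.97 ± 0.05 at 18 months and 12.97 ± 0.13 at 2 years (SD, n = 2 each). The highest age was 2 months. The 54 genes took 4.59% ± 0.23 of the summed intensity of all genes tested at 2 months (SD, n = 3), against 3.75% ± 0.03 at P28 (SD, n = 3). These were the highest and lowest shares among the later ages, and 18 months also stood at 3.75%. The mean intensity of the 54 genes was 8256 to 8636 per array at 2 months and 7596 to 7813 at P28. A share also moves with the sum below it.

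How closely a gene followed the others was uneven. Pearson's r with the median of the other ribosomal proteins, over arrays that share scaling, was 0.91 for Rpl7 and 0.89 for Rps13 over the 18 earlier arrays. It was -0.39 for Rps23rg1, -0.25 for Rps19, -0.21 for Rplp1 and -0.18 for Rpl12 there. Over the 14 later arrays Rps19 stood at 0.80, Rplp1 at 0.86 and Rpl12 at -0.39.

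The layers showed no large contrast between epithelium and stroma, with 1 array each and no test. Of 12998 genes, 6.62% differed at least 2-fold between the layers, and 0 of the 62 ribosomal protein genes did (1, after quantile normalization of all 34 arrays). Their median log2 difference, epithelium minus stroma, was 0.08. Krt12, the corneal epithelial keratin, read 15150 on the epithelium array and 2185 on the stroma array. Kera, the stromal proteoglycan keratocan, read 158.2 on the epithelium array and 3433 on the stroma array. The epithelial marker was thus also read on the stroma array. The sources differ on the ages of these layers: P28 and P7 come from the labels of the individual arrays, but the study's design text names 1 age. Layer, isolation method and, by the array labels, age cannot be told apart.

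The largest differences toward epithelium were in Rps10, at 5335 in epithelium and 3242 in stroma (0.72), Rpl14, at 2214 and 1355 (0.70), Rpl13, at 6144 and 3958 (0.63), and Rpl29, at 2948 and 2194 (0.42). Toward stroma they were in Rpl12, at 259.7 in epithelium and 453.9 in stroma (-0.77), Rpsa, at 4961 and 6791 (-0.45), Rps15a, at 833 and 1131 (-0.43), and Rpl34, at 1700 and 2292 (-0.43). The Rpl12 reading in epithelium lay below that array's median, so the size of its difference is uncertain. Rpl39l read 269.1 in epithelium and 263.5 in stroma, and Rpl3l 299.5 and 276.9. All 4 of these last values lay below the array medians of 318 in epithelium and 321.5 in stroma, and those arrays have a higher floor than the whole-cornea arrays.

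**Figure D5:**
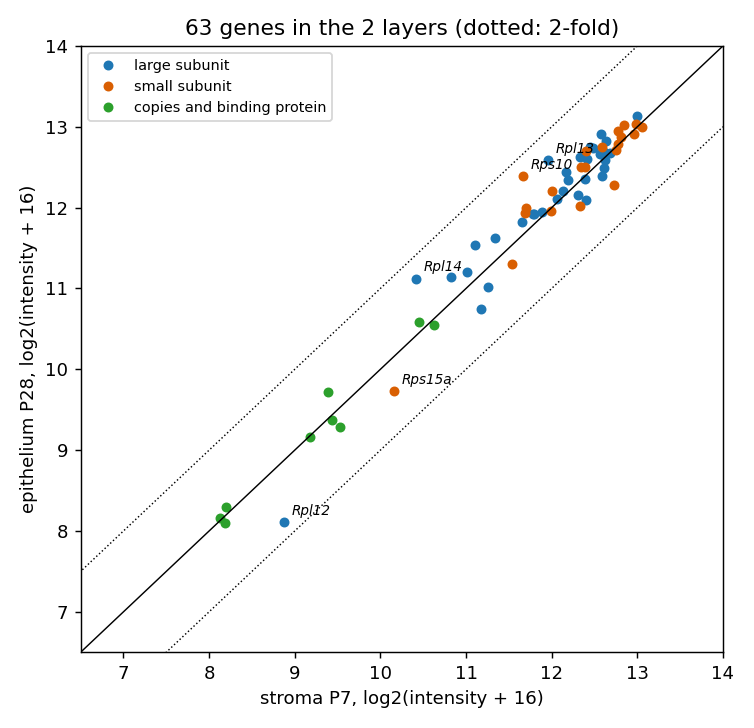
Log2(intensity + 16) of the 63 genes in the epithelium of P28 (vertical axis) and the stroma of P7 (horizontal axis), 1 array each, with the line of equality and dotted lines at 2-fold. All points lie within the dotted lines, and Rpl12 lies farthest below the line of equality at -0.77, with its epithelium reading below that array's median.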

How the data were processed

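RNA of whole cornea and of 2 corneal layers was amplified and read on Affymetrix arrays, per the labels' protocols. The deposited values are linear intensity values, 1 per probe set and array, which the authors made in Affymetrix Expression Console 1.1 by the PLIER method, as the submitters' processing notes have it. Scaling between arrays is not given in the sources used here. Whether a probe set also reads processed copies of its gene was not tested, and 239 probe sets that hold a symbol of the rule together with others were left out.

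Of 35557 probe sets, 21789 had 1 symbol. Those that exceeded the array median on 2 or more of the 32 arrays of whole cornea were kept, the brightest per gene was used, and 12998 genes remained. A model with 1 mean per age was fitted to log2(intensity + 16) with limma 3.58.1 in R 4.3.3 (lmFit, eBayes, 20 residual and 4.1 prior degrees of freedom). Tests were two-sided, adjusted by Benjamini-Hochberg over all genes. The script was tested on simulated data. The number of arrays limits the precision, and the layer arrays entered no fit.

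Genes and lists were chosen with earlier results of these data known. Named were the 4 highest and 4 lowest genes by mean, the 6 highest F values per test, the 4 largest called rises and falls per comparison, the 4 largest layer differences each way, every copy, and the leading called genes of other lists. Others named, such as those just outside the threshold, were chosen after their values were seen, as was the place of Rpl32l and Rps23rg1 with the copies. Replicate numbers did not pair samples: deviations of same-numbered arrays correlated at a median of 0.0013 over 84 pairs (-0.29 to 0.40). Alternatives covered offset, filter, scaling, moderation, weights, replicate block, probe set choice and single arrays.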

Additional observations from a re-analysis of the deposited data

How the results depend on the processing

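Of 3430 values of 73 named calls under 50 settings, 3012 kept their call, 418 lost it and 0 changed direction. Part of this was fixed in advance. F-test calls have no direction to change, and the setting of ribosomal proteins by name alone kept all 73 calls from an unchanged fit. Of the settings, 32 left out 1 array each, often of an age outside the comparison. The counts of genes called in the report are 12 and 11 in the F-tests over E14.5 to P14 and over P28 to 2 years, 9 at E15.5 against E14.5, 9 and 3 at P14 against E14.5 and against E15.5, 5 in ageing and 19 between neighbouring ages. Array weights raised these to 35, 28, 17, 22, 8, 20 and 40. A further minimum of 1 log2 unit lowered them to 2, 1, 1, 2, 0, 0 and 1. All-gene counts under the settings are not set beside these counts of ribosomal protein genes. Trend and robust moderation gave 12 in ageing and quantile normalization 3. Centring arrays on the median gave 7 in the later F-test, 1 at P14 against E15.5 and 2 in ageing. A fit to the array set alone gave 5 at P14 against E14.5 and 1 against E15.5. Without the lens-, muscle- and retina-rich arrays the earlier F-test gave 19 and E15.5 against E14.5 gave 4. That setting leaves no array of 6 months, so ageing, the later F-test and the neighbouring ages have no value. The 54 ribosomal proteins by name gave 7 in the earlier F-test and 5 at E15.5 against E14.5. Ageing against 2 months alone, a choice made after seeing the data, gave 9. Quantile normalization of 34 arrays put 1 gene past 2-fold between the layers. Leaving out each array gave 7 to 12 in the later F-test, 5 to 15 at P14 against E14.5, 0 to 4 at P14 against E15.5 and 1 to 9 in ageing. It gave 9 to 15 in the earlier F-test, 6 to 10 at E15.5 against E14.5 and 15 to 20 between neighbouring ages. With the replicate block the counts were 13, 9, 8, 8, 2, 4 and 18, in the order above. The causes were not tested, other than for the stricter rule and the smaller set of genes, which lower counts by construction.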
